A study of Mus musculus with 11 samples.

Results

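Ubiquitin-conjugating enzymes (E2 enzymes, encoded mainly by Ube2 genes) carry activated ubiquitin to its substrates, and the ubiquitin-specific proteases (USPs) form the largest family of deubiquitinases, which take it off again. The genes described here were all genes of an Illumina mouse array whose current symbol starts with Ube2, or with Usp and a digit, with 1 USP gene left out by the rule. The rule gave 83 genes with 172 probes, of 19403 named genes with 32794 probes: 32 Ube2 genes with 60 probes and 51 USP genes with 112 probes. After the dimmest 40% of probes had been dropped, 30 Ube2 genes with 45 probes and 45 USP genes with 81 probes were tested, of 14186 named genes. Ube2r2, Ube2w, Usp13, Usp17lb, Usp28, Usp33, Usp38 and Usp48 had no probe above that filter. By its wording the rule also took in Ube2cbp, which encodes an E2-binding protein, the pseudogene Ube2d-ps, Usp6nl, which encodes a GTPase-activating protein of Rab GTPases and not a deubiquitinase, and Usp46os2, an antisense RNA.

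The arrays measured RNA of germ cells from adult C57Bl/6 mice 8 to 12 weeks old, in 3 preparations of Dnmt3L heterozygous round spermatids, 3 of wild type round spermatids, 2 of Dnmt3L heterozygous pachytene spermatocytes and 3 of wild type pachytene spermatocytes, 11 arrays in all. Heterozygous males carry 1 Dnmt3L allele disrupted by a LacZ insertion, and DNMT3L is a cofactor of the de novo DNA methyltransferases. Each preparation pooled 10 mice, and cells were enriched by elutriation, a centrifugal sorting by cell size that does not isolate a stage completely. Both fractions were kept from an isolation, so a spermatid and a spermatocyte preparation may come from the same mice, which the labels do not say, and p-values measure the spread between these preparations only. The values are log2 values after variance stabilisation and quantile normalisation, with a median of 6.87 on every array, and the transformation compresses differences between values near that median or below it. Spermatid and spermatocyte arrays were on different BeadChips, so chip and cell type cannot be told apart, and in bulk fractions fewer cells of a type and less RNA per cell cannot be told apart either.

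Ubiquitin passes from an E1 activating enzyme to an E2 and then, with an E3 ligase, to a lysine of the substrate or of another ubiquitin. The chain that results decides whether the protein is degraded by the proteasome or kept for signalling, trafficking or repair. In the testis, ubiquitylation of histones is known from the inactivated sex chromosomes of pachytene spermatocytes and from the replacement of histones in spermatids, and mice without the E2 gene Ube2b are known to be infertile as males.

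The promoter windows of 3 USP genes are shown because these genes stood higher in spermatids of both genotypes and because the windows differ widely in CpG, the dinucleotide that DNA methyltransferases modify. They are RefSeq windows of the build GRCm38.p6, each with 250 bases before the annotated start and 50 bases after it, and capitals mark every CpG. Usp50 lies at chr2:126783411-126783710, Usp26 at chrX:51801184-51801483 and Usp7 at chr16:8738293-8738592, all on the minus strand, and they are written 5′ to 3′ along the gene.
Usp50: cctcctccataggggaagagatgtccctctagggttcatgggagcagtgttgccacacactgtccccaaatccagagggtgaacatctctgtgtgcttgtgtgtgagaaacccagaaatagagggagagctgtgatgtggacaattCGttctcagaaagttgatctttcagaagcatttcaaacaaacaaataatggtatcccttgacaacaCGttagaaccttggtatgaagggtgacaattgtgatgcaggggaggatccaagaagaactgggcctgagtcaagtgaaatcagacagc
Usp26: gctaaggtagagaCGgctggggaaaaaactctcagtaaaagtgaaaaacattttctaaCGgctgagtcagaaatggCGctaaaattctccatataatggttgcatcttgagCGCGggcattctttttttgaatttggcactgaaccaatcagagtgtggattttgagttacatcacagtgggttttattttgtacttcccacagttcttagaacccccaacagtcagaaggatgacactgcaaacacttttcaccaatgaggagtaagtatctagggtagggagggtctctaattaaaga
Usp7: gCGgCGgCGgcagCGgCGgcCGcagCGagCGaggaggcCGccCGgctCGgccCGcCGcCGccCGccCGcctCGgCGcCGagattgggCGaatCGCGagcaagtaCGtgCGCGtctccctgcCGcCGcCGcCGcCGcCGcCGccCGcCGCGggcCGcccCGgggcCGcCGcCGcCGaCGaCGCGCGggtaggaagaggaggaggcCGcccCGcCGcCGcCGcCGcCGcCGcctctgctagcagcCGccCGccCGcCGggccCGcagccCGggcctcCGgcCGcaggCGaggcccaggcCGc

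The Usp50 window holds 2 CpGs, the Usp26 window 5 and the Usp7 window 63. Among 32851 windows of the same length the median was 7, 23.3% had as few CpGs as Usp50 or fewer, 43.6% had as few as Usp26 or fewer, and 0.0304% had as many as Usp7 or more. A window was at hand for 65 of the 83 genes, in 75 windows with a median of 29 CpGs. The cAMP response element TGACGTCA, which reads the same on both strands and is known from spermatid promoters as the site of CREM, was found in 2 of the 75 windows, of Ube2h and of Ube2b, and in 1.79% of all windows. The shorter TGACG, which lies within it, was found on either strand in 23 of the 75 windows (30.7%) and in 20.8% of all windows. TGACG itself holds a CpG, and no allowance was made for the higher median of the 75 windows, 29 CpGs against 7. None of the 3 windows shown holds TGACG. The arrays measured no methylation or factor binding, so these letters are a description of the windows alone.

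The probe of Dnmt3L read 10.66, 9.78 and 10.96 in heterozygous spermatids and 10.91, 10.19 and 10.75 in wild type spermatids, against 8.82 and 8.66 in heterozygous spermatocytes and 8.27, 8.17 and 8.10 in wild type spermatocytes. Neither genotype difference was called (0.56 ± 0.32 SE in spermatocytes and -0.15 ± 0.28 SE in spermatids, limma adjusted p = 0.374 and 0.868). In the study's account the probe lies downstream of the LacZ insertion and also reads the shorter transcripts that start after it, so it does not check the labels. Of 10 round spermatid markers 6 were higher in heterozygous and 9 in wild type spermatids than in spermatocytes. Their mean over an array was 10.67 and 10.62 in heterozygous spermatocytes and 10.45, 9.50 and 10.43 in wild type spermatocytes, without overlap. Wild type array 2 lay furthest below, and 0 of the 10 markers were called between the genotypes in spermatocytes. Of 6 spermatocyte markers measured only Meiob was called lower in wild type spermatids and none in heterozygous spermatids. The mean of the 6 over an array was 9.22 to 9.38 in heterozygous and 8.96 to 9.41 in wild type spermatids. It was 9.54 to 9.67 in heterozygous and 9.62 to 9.81 in wild type spermatocytes, so the cell types did not overlap. The defining marker Sycp3 read close to the array median in every group (6.91, 6.87, 6.82 and 6.86 in heterozygous spermatids, wild type spermatids, heterozygous spermatocytes and wild type spermatocytes).

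Markers of other cells moved with cell type. Of 7 macrophage and blood markers, 4 were higher in heterozygous and 6 in wild type spermatids, with array means of 8.90 to 8.92 in heterozygous spermatids, 8.42 to 9.78 in wild type spermatids, 7.09 to 7.18 in heterozygous spermatocytes and 6.94 to 7.14 in wild type spermatocytes. Of 6 peritubular markers 2 and 3 were higher in heterozygous and wild type spermatids, of 6 spermatogonium markers 1 and 3, and of 10 Sertoli and 6 endothelial markers 0. The mean of 6 Leydig cell markers ran from 7.59 to 8.92 in heterozygous spermatids, 7.36 to 9.71 in wild type spermatids, 7.54 to 7.66 in heterozygous spermatocytes and 7.18 to 8.68 in wild type spermatocytes. The Leydig marker Star was called lower in spermatids of both genotypes (-1.03 and -1.16, adjusted p = 0.0227 and 0.00923), against list medians of 0.67 and 0.82. The part of these cells in the differences given next was not tested.

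Both spermatid arrays 2 stood apart from the other spermatid arrays. Over all tested probes their correlation with the spermatocyte arrays was 0.923 to 0.953, against 0.831 to 0.900 for the other spermatid arrays, and they had the lowest round spermatid marker mean of their genotypes, 11.95 each. Without both, 2 Ube2 genes were called higher and 4 lower in heterozygous spermatids and 2 higher and 7 lower in wild type spermatids, and 9 USP genes higher and 10 lower in heterozygous and 9 higher and 11 lower in wild type spermatids. For that fit the share of all genes called between the cell types was not counted. Between the genotypes 2 Ube2 and 3 USP genes were then called in spermatids, beside 2.98% higher and 3.11% lower of all genes. What sets these arrays apart was not tested.

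Among the Ube2 genes the spermatids differed from the spermatocytes in few genes. In heterozygous cells 1 of 30 was called higher and 0 lower, beside 10.5% higher and 11.0% lower of all 14186 genes, and in wild type cells 1 was called higher and 4 lower, beside 14.2% and 16.9%. A gene was read by its tested probe with the highest mean and was called at a Benjamini-Hochberg adjusted p under 0.05 in limma. Leaving out 1 array gave 0 to 7 genes called lower in wild type cells, 0 without wild type spermatid array 1 or wild type spermatocyte array 2 and 7 without heterozygous spermatid array 2. The median log2 difference was -0.10 in heterozygous and -0.20 in wild type cells, beside -0.02 and -0.03 for all genes, and 19 and 22 of the 30 genes were below 0. In heterozygous cells 7 genes had an unadjusted p under 0.05, beside 40.5% of all genes, and in wild type cells 16, beside 49.2%. Of these, 4 and 14 were lower in spermatids, beside 23.0% and 27.1% of all genes.

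**Figure D1:**
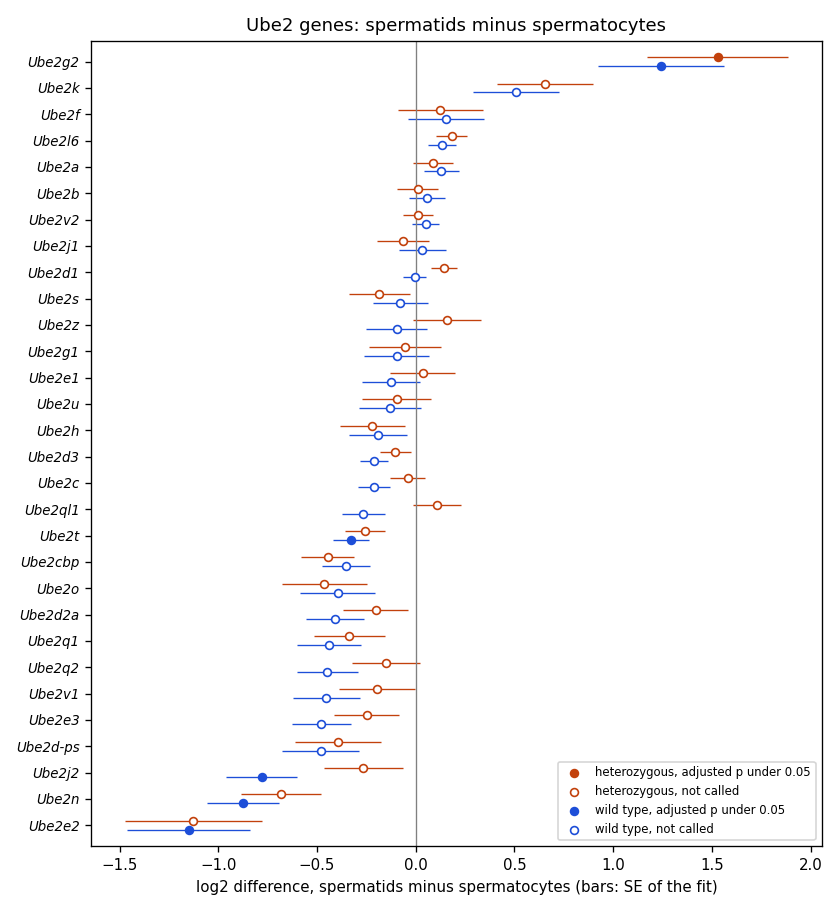
Log2 difference between spermatids and spermatocytes for the 30 tested Ube2 genes, in heterozygous (orange) and wild type (blue) cells, with bars for the SE of the fit and filled points for an adjusted p under 0.05. Ube2g2 stands alone on the right at 1.53 and 1.24, and Ube2e2 lies lowest at -1.13 and -1.15, where only the wild type difference was called.

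Ube2g2, an E2 of the endoplasmic reticulum that works in the degradation of misfolded proteins, was the 1 Ube2 gene called in both genotypes. It read 9.80, 8.52 and 9.81 in heterozygous spermatids and 8.81, 8.63 and 9.24 in wild type spermatids, against 7.84 and 7.86 in heterozygous spermatocytes and 7.79, 7.52 and 7.65 in wild type spermatocytes. Every spermatid array lay above every spermatocyte array, and heterozygous spermatid array 2 was the lowest of the spermatids. The difference was 1.53 ± 0.36 (SE, adjusted p = 0.0262) in heterozygous and 1.24 ± 0.32 (adjusted p = 0.038) in wild type cells, a 2.89-fold and a 2.37-fold higher level. The other tested probe of Ube2g2 lay near the array median in all groups and gave -0.08 and -0.06. In wild type cells the call was lost without either heterozygous spermatocyte array, any wild type spermatocyte array or wild type spermatid array 1 or 3 (adjusted p up to 0.115), and in heterozygous cells without heterozygous spermatid array 1 or 3, wild type spermatid array 1, either heterozygous spermatocyte array or wild type spermatocyte array 2 or 3 (adjusted p up to 0.119).

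Ube2n encodes the E2 that builds lysine-63-linked chains together with the catalytically inactive E2 variants encoded by Ube2v1 and Ube2v2, and it works in DNA damage signalling. It read 8.07, 8.82 and 8.67 in heterozygous spermatids and 8.24, 8.59 and 8.36 in wild type spermatids, against 9.23 and 9.17 in heterozygous spermatocytes and 9.15, 9.42 and 9.26 in wild type spermatocytes. All spermatid arrays lay below all spermatocyte arrays. The gene fell in wild type spermatids (-0.88 ± 0.18 SE, adjusted p = 0.0167), whereas the heterozygous difference of -0.68 ± 0.20 was not called (adjusted p = 0.0669). The wild type call was lost without wild type spermatid array 1 or wild type spermatocyte array 2 (adjusted p up to 0.0622). Its partners were not called, with wild type differences of -0.45 for Ube2v1 and 0.05 for Ube2v2.

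Ube2e2, an E2 of the class that pairs with RING-type ligases, read 6.91, 8.30 and 7.80 in heterozygous spermatids and 7.45, 7.97 and 7.57 in wild type spermatids, against 8.74 and 8.85 in heterozygous spermatocytes and 8.97, 8.52 and 8.95 in wild type spermatocytes. The heterozygous spermatids spread from 6.91 to 8.30, yet no spermatid array reached the spermatocytes. Its wild type difference was -1.15 ± 0.31 (adjusted p = 0.0469), and the heterozygous difference of -1.13 ± 0.35 missed the threshold (adjusted p = 0.0764). Of its relatives, Ube2e1 and Ube2e3 gave 0.03 and -0.25 in heterozygous and -0.13 and -0.48 in wild type cells, not called.

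Ube2j2, a membrane-bound E2 of the endoplasmic reticulum, read 7.95, 8.04 and 8.25 in heterozygous spermatids and 7.90, 8.07 and 7.37 in wild type spermatids, against 8.28 and 8.41 in heterozygous spermatocytes and 8.59, 8.75 and 8.34 in wild type spermatocytes. The wild type groups were apart and the heterozygous groups were close but did not overlap. Ube2j2 fell in wild type spermatids (-0.78 ± 0.18, adjusted p = 0.0243) and gave -0.27 ± 0.20 in heterozygous spermatids (adjusted p = 0.549). Ube2t, the E2 of the Fanconi anaemia repair pathway, had the smallest of the called differences, -0.33 ± 0.09 in wild type cells (adjusted p = 0.0499) and -0.26 ± 0.10 in heterozygous cells (adjusted p = 0.165). It read 6.85, 6.89 and 7.09 in heterozygous and 6.91, 7.14 and 6.97 in wild type spermatids, against 7.28 and 7.12 in heterozygous and 7.24, 7.35 and 7.41 in wild type spermatocytes, all near the array median. The wild type calls of Ube2e2, Ube2j2 and Ube2t were lost in 8, 5 and 8 of the 11 fits that left out 1 array (adjusted p up to 0.144, 0.0858 and 0.164), in each of them without either heterozygous spermatocyte array, wild type spermatid array 1 or wild type spermatocyte array 1 or 2. Ube2e2 and Ube2t were also not called without wild type spermatid array 3 or wild type spermatocyte array 3, Ube2e2 not without heterozygous spermatid array 3, and Ube2t not without heterozygous spermatid array 1.

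The Rad6 pair, Ube2a on the X chromosome and its autosomal copy Ube2b, ubiquitylates histone H2B. Ube2b read 7.34, 7.57 and 7.44 in heterozygous spermatids and 7.46, 7.40 and 7.73 in wild type spermatids, against 7.47 and 7.42 in heterozygous spermatocytes and 7.47, 7.50 and 7.45 in wild type spermatocytes. The groups overlapped and the differences were 0.01 ± 0.10 in heterozygous and 0.06 ± 0.09 in wild type cells (adjusted p = 0.982 and 0.844). Ube2a stayed within 0.25 of the array median on every array, between 6.63 and 7.02, with differences of 0.09 ± 0.10 and 0.13 ± 0.09 (adjusted p = 0.741 and 0.501).

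The Ube2d genes encode E2 enzymes that work with many ligases. Ube2d1 and Ube2d3 lay near the array median and were not called, with differences of 0.14 and -0.10 in heterozygous and -0.00 and -0.21 in wild type cells. The brighter probe of Ube2d2a gave -0.20 ± 0.16 in heterozygous and -0.41 ± 0.15 in wild type cells and was not called (adjusted p = 0.592 and 0.127). Its other probe read 8.30, 8.87 and 8.79 in heterozygous spermatids and 8.55, 8.68 and 8.56 in wild type spermatids, against 9.44 and 9.44 in heterozygous spermatocytes and 9.55, 9.68 and 9.44 in wild type spermatocytes. On that probe every spermatid array was below every spermatocyte array and both differences were called, -0.78 ± 0.15 in heterozygous and -0.96 ± 0.14 in wild type cells (adjusted p = 0.0129 and 0.00377).

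The E2 genes of the cell cycle were not called apart from Ube2t. Ube2c and Ube2s, which serve the anaphase-promoting complex, gave -0.04 and -0.18 in heterozygous cells and -0.21 and -0.08 in wild type cells. Among E2 enzymes that use ubiquitin-like proteins or a second E1, Ube2f for NEDD8, Ube2l6 for ISG15 and Ube2z, which is charged by UBA6, ranged from 0.12 to 0.18 in heterozygous and from -0.10 to 0.15 in wild type cells, with none called. The 8 genes of the Ube2e, Ube2q, Ube2h and Ube2o group were all below 0 in wild type cells, with a median of -0.42. Of these, 1 was called lower, beside 16.9% of all genes. In heterozygous cells 6 of 8 were below 0, with a median of -0.23, and 0 were called lower, beside 11.0% of all genes. Of all 14186 genes 7808 were below 0 in wild type and 7608 in heterozygous cells. This list joins several kinds of E2 gene and was chosen with earlier results of these data known. Of all 30 Ube2 genes, 4 had arrays that lay wholly higher and 7 wholly lower in heterozygous spermatids, and 2 and 14 in wild type spermatids, beside 24.4% higher and 30.4% lower, and 23.6% higher and 31.2% lower, of all genes.

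The USP genes held the larger increases, whereas the lowest differences were -0.82 for USP and -1.13 for Ube2 genes in heterozygous cells and -1.16 and -1.15 in wild type cells. In heterozygous cells 7 of 45 were called higher in spermatids and 4 lower, beside 10.5% and 11.0% of all genes, and in wild type cells 7 were called higher and 8 lower, beside 14.2% and 16.9%. As shares of the 45 genes these were 15.6% and 8.89% in heterozygous cells and 15.6% and 17.8% in wild type cells, near those of all genes. Of the 45 genes, 10 were called in both genotypes with the same direction, beside 19.3% of all genes called in both. These 10 are 90.9% of the heterozygous and 66.7% of the wild type USP calls. Over all genes 2743 were called in both, out of 1484 higher and 1564 lower heterozygous calls. The wild type calls of all genes were 2016 higher and 2391 lower, so the overlap of the USP calls was near that of all genes. Usp50, Usp26, Usp7, Usp9y, Usp45 and Usp11 were the shared higher genes, and Usp20, Usp21, Usp30 and Usp54 the shared lower ones. The median of the 45 genes was -0.01 in heterozygous and -0.11 in wild type cells, beside -0.02 and -0.03 for all genes. An unadjusted p under 0.05 in limma was found for 20 and 23 of the 45, beside 40.5% and 49.2% of all genes. Arrays did not overlap for 12 genes higher and 14 lower in heterozygous spermatids and for 11 higher and 16 lower in wild type spermatids, beside the 24.4%, 30.4%, 23.6% and 31.2% of all genes given above.

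**Figure D2:**
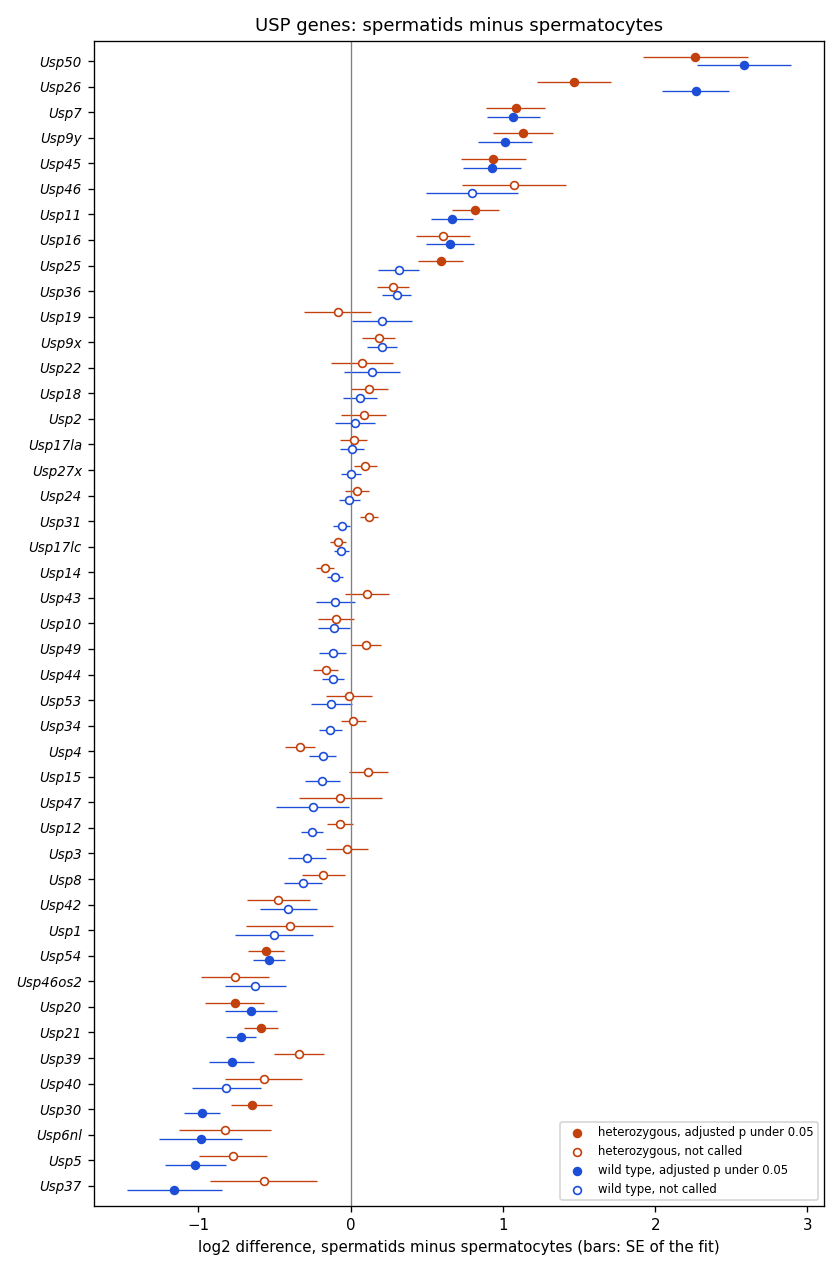
Log2 difference between spermatids and spermatocytes for the 45 tested USP genes, in heterozygous (orange) and wild type (blue) cells, with bars for the SE of the fit and filled points for an adjusted p under 0.05. Usp50 and Usp26 lie furthest to the right, at 2.26 and 1.47 in heterozygous and 2.58 and 2.27 in wild type cells, and Usp37 lies lowest in wild type cells at -1.16.

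Usp50, a little studied USP gene whose CpG-poor promoter window is printed above, had the largest difference of the 75 genes in either genotype. It read 11.59, 10.47 and 11.65 in heterozygous spermatids and 11.54, 10.90 and 11.52 in wild type spermatids, against 9.04 and 8.91 in heterozygous spermatocytes and 8.79, 8.50 and 8.92 in wild type spermatocytes. Array 2 was the lowest spermatid array in each genotype, and it still lay more than 1 unit above every spermatocyte array. The difference was 2.26 ± 0.35 (adjusted p = 0.00486) in heterozygous and 2.58 ± 0.31 (adjusted p = 0.00189) in wild type cells, 4.8-fold and 5.98-fold on the deposited scale. Its second probe rose as well, by 1.27 ± 0.19 and 1.26 ± 0.17 (adjusted p = 0.0046 and 0.00315). Both genotypes' calls held in all 11 fits that left out 1 array.

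The genes on the sex chromosomes, which are silenced in pachytene spermatocytes, were described together: 5 USP genes were measured, 3 were called higher in spermatids of both genotypes and 0 lower. Of 448 X-linked genes 27.7% were called higher in heterozygous spermatids and 39.3% in wild type spermatids, beside 9.89% and 13.4% of autosomal genes, while 0.223% and 0.446% of the X-linked genes were called lower. Usp26, an X-linked gene known for its expression in the testis, read 9.63, 9.39 and 8.93 in heterozygous spermatids and 9.90, 9.72 and 10.18 in wild type spermatids, against 7.73 and 7.97 in heterozygous spermatocytes and 7.93, 7.30 and 7.77 in wild type spermatocytes. It was 1.47 ± 0.24 higher in heterozygous spermatids (adjusted p = 0.00676) and 2.27 ± 0.22 higher in wild type spermatids (adjusted p = 0.000876), or 2.77-fold and 4.81-fold, and kept both calls in all 11 leave-outs. Its brightest probe is annotated to a cDNA clone, and the other probe, annotated to a RefSeq transcript, lay between 6.71 and 7.13 on all arrays and was not called (0.16 ± 0.09 and 0.19 ± 0.08).

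Usp9y and Usp9x are the Y-linked and X-linked copies of a deubiquitinase, and of 8 Y-linked genes measured 2 (25.0%) were called higher in each genotype. Usp9y read 8.13, 7.60 and 8.30 in heterozygous spermatids and 8.40, 8.03 and 8.01 in wild type spermatids, against 6.98 and 6.78 in heterozygous spermatocytes and 7.09, 7.06 and 7.24 in wild type spermatocytes. The difference was 1.13 ± 0.20 in heterozygous cells (adjusted p = 0.00858) and 1.01 ± 0.18 in wild type cells (adjusted p = 0.00851), and the heterozygous call was lost only without heterozygous spermatocyte array 2 (adjusted p = 0.0607). The spermatocyte values of Usp9y lay close to the array median, so its differences compare with a level near the floor. Usp9x was not called, at 0.18 ± 0.11 and 0.20 ± 0.10. Usp11, X-linked and known from DNA repair, read 7.47, 7.30 and 7.71 in heterozygous spermatids and 7.69, 7.24 and 7.29 in wild type spermatids, against 6.78 and 6.57 in heterozygous spermatocytes and 6.81, 6.69 and 6.73 in wild type spermatocytes. Its spermatocyte values were all below the array median, so the differences of 0.82 ± 0.16 and 0.67 ± 0.14 (adjusted p = 0.0118 and 0.0171) compare with a level near the floor. The heterozygous call of Usp11 was lost without heterozygous spermatocyte array 2 (adjusted p = 0.0837) and the wild type call without wild type spermatocyte array 2 or 3 (adjusted p up to 0.0599). Usp27x stayed near the median in all groups, at 0.09 ± 0.07 and 0.00 ± 0.07.

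Of the USP genes that act on histones, 8 were measured. In heterozygous spermatids 1 was higher and 1 lower, beside 10.5% and 11.0% of all genes. In wild type spermatids 2 were higher and 1 lower, beside 14.2% and 16.9%. Usp7, which removes ubiquitin from MDM2 and from histone H2B and has the CpG-dense promoter window printed above, read 11.83, 11.28 and 11.89 in heterozygous spermatids and 11.87, 11.51 and 11.88 in wild type spermatids, against 10.65 and 10.51 in heterozygous spermatocytes and 10.72, 10.50 and 10.84 in wild type spermatocytes. All spermatid arrays were above all spermatocyte arrays, with differences of 1.08 ± 0.20 in heterozygous and 1.07 ± 0.17 in wild type cells (adjusted p = 0.00946 and 0.00635), on its brightest probe. The other probes of Usp7 did not follow, as described with the probes. The heterozygous call was lost without heterozygous spermatocyte array 2 (adjusted p = 0.063).

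Usp21 and Usp16 both remove ubiquitin from histone H2A, and in wild type cells they were called in opposite directions. Usp21 read 8.95, 9.18 and 9.07 in heterozygous spermatids and 8.82, 9.16 and 8.85 in wild type spermatids, against 9.64 and 9.67 in heterozygous spermatocytes and 9.65, 9.62 and 9.73 in wild type spermatocytes. The groups were apart and the gene fell by 1.5-fold in heterozygous (-0.59 ± 0.11, adjusted p = 0.0108) and by 1.65-fold in wild type spermatids (-0.72 ± 0.10, adjusted p = 0.00311). Usp16, named after its values were seen, was called higher in wild type spermatids (0.65 ± 0.16, adjusted p = 0.031) and was 0.61 ± 0.18 in heterozygous spermatids (adjusted p = 0.0609), and its other probe gave -0.24 and -0.32, not called. The heterozygous call of Usp21 was lost without either heterozygous spermatocyte array (adjusted p up to 0.0641). The call of Usp16 was lost in 7 of 11 leave-outs (adjusted p up to 0.0989), without either heterozygous spermatocyte array, any wild type spermatocyte array, or wild type spermatid array 1 or 3.

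Among the USP genes of membranes and organelles, 6 were measured. In heterozygous spermatids 0 were higher and 2 lower, beside 10.5% and 11.0% of all genes. In wild type spermatids 0 were higher and 3 lower, beside 14.2% and 16.9%. Usp30, a deubiquitinase of the mitochondrial outer membrane that opposes mitophagy, read 8.12, 8.39 and 8.48 in heterozygous spermatids and 8.02, 8.19 and 7.80 in wild type spermatids, against 8.95 and 9.01 in heterozygous spermatocytes and 8.94, 9.09 and 8.92 in wild type spermatocytes. The gene fell in both, by 1.57-fold (-0.65 ± 0.13, adjusted p = 0.0163) and 1.97-fold (-0.98 ± 0.12, adjusted p = 0.00208). Usp20, which acts on membrane receptors, read 10.66, 11.23 and 10.77 in heterozygous spermatids and 11.15, 11.20 and 10.72 in wild type spermatids, against 11.58 and 11.73 in heterozygous spermatocytes and 11.74, 11.76 and 11.54 in wild type spermatocytes, and gave -0.76 ± 0.19 and -0.65 ± 0.17 (adjusted p = 0.0344 and 0.0403). Usp6nl, the Rab regulator, was lower in wild type spermatids (-0.99 ± 0.27, adjusted p = 0.0482) and -0.82 ± 0.30 in heterozygous spermatids (adjusted p = 0.133). The endosomal Usp8 and Usp2, known from male fertility in mice, gave -0.18 and 0.09 in heterozygous and -0.31 and 0.03 in wild type cells and were not called.

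The calls of this group differed in how far they rested on single arrays. That of Usp30 in wild type cells held in all 11 leave-outs, and in heterozygous cells it was lost without either heterozygous spermatocyte array (adjusted p up to 0.0902). The calls of Usp20 were lost in 8 of 11 leave-outs in each genotype (adjusted p up to 0.181 in heterozygous and 0.122 in wild type cells), and the wild type call of Usp6nl likewise in 8 of 11 (adjusted p up to 0.142), in all 3 cases without any 1 of the 5 spermatocyte arrays or wild type spermatid array 1. The heterozygous call of Usp20 was also lost without heterozygous spermatid array 1 or 3, its wild type call without heterozygous spermatid array 3 or wild type spermatid array 3, and that of Usp6nl without heterozygous spermatid array 1 or wild type spermatid array 3.

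Usp5 disassembles free ubiquitin chains. It read 7.76, 8.52 and 8.34 in heterozygous spermatids and 8.00, 8.34 and 7.76 in wild type spermatids, against 9.01 and 8.95 in heterozygous spermatocytes and 9.13, 9.09 and 8.93 in wild type spermatocytes. It fell in wild type spermatids (-1.02 ± 0.20, adjusted p = 0.0136) in every leave-out, and the heterozygous difference of -0.77 ± 0.22 was not called (adjusted p = 0.0606). Of the proteasome-bound and chain-directed USP genes measured with it, Usp14 was not called (-0.17 and -0.10), and Usp25, named after its values were seen, was called higher in heterozygous spermatids (0.59 ± 0.15, adjusted p = 0.0343) and not in wild type spermatids (0.31 ± 0.13, adjusted p = 0.2), with spermatocyte values at the array median. That call held only without heterozygous or wild type spermatid array 2, and the adjusted p reached 0.165 in the other 9 leave-outs.

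Usp39 and Usp54 belong to the USP genes long classed as catalytically inactive. Usp39, a component of the splicing machinery, read 10.13, 10.43 and 10.39 in heterozygous spermatids and 10.34, 10.24 and 9.99 in wild type spermatids, against 10.72 and 10.60 in heterozygous spermatocytes and 10.73, 10.92 and 11.26 in wild type spermatocytes. It fell in wild type spermatids (-0.78 ± 0.15, adjusted p = 0.0115), which held in all 11 leave-outs, and was -0.34 ± 0.17 in heterozygous spermatids (adjusted p = 0.28). Usp54 read 9.39, 9.65 and 9.66 in heterozygous spermatids and 9.37, 9.39 and 9.22 in wild type spermatids, against 10.24 and 10.01 in heterozygous spermatocytes and 9.96, 9.70 and 9.92 in wild type spermatocytes. It was lower by 1.47-fold in heterozygous (-0.56 ± 0.12, adjusted p = 0.0187) and 1.45-fold in wild type spermatids (-0.54 ± 0.11, adjusted p = 0.014), and only the heterozygous call was lost by a leave-out, that of heterozygous spermatocyte array 1 (adjusted p = 0.133). The third gene of this kind, Usp53, was not called (-0.01 and -0.13).

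Usp45, which acts on the repair protein ERCC1, read 9.79, 9.02 and 9.86 in heterozygous spermatids and 9.40, 9.40 and 9.37 in wild type spermatids, against 8.75 and 8.49 in heterozygous spermatocytes and 8.49, 8.46 and 8.44 in wild type spermatocytes. The wild type values spread by less than 0.1 within a group, and heterozygous spermatid array 2 lay 0.77 below the next of its group. The gene was 0.94 ± 0.21 higher in heterozygous (adjusted p = 0.0244) and 0.93 ± 0.19 higher in wild type spermatids (adjusted p = 0.0164). These calls were lost in 6 and 3 leave-outs (adjusted p up to 0.152 and 0.0537), both without wild type spermatid array 1 or wild type spermatocyte array 2, the wild type call also without wild type spermatocyte array 3, and the heterozygous call also without heterozygous spermatid array 1 or 3 or either heterozygous spermatocyte array.

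Usp37, which acts on cyclin A, read 8.22, 9.69 and 8.99 in heterozygous spermatids and 8.30, 8.73 and 8.48 in wild type spermatids, against 9.48 and 9.60 in heterozygous spermatocytes and 9.55, 9.91 and 9.53 in wild type spermatocytes. Heterozygous spermatid array 2, at 9.69, stood among the spermatocytes, and the other spermatid arrays lay below them. The wild type difference was -1.16 ± 0.31 (adjusted p = 0.046) and the heterozygous one -0.57 ± 0.35 (adjusted p = 0.426). The wild type call held only without heterozygous spermatid array 1 or 2, with an adjusted p of up to 0.144 in the other 9 leave-outs. Usp12 and Usp46, which share the cofactor WDR48 with Usp1, were not called between the cell types, at -0.07 and 1.07 in heterozygous and -0.25 and 0.80 in wild type cells.

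**Figure D3:**
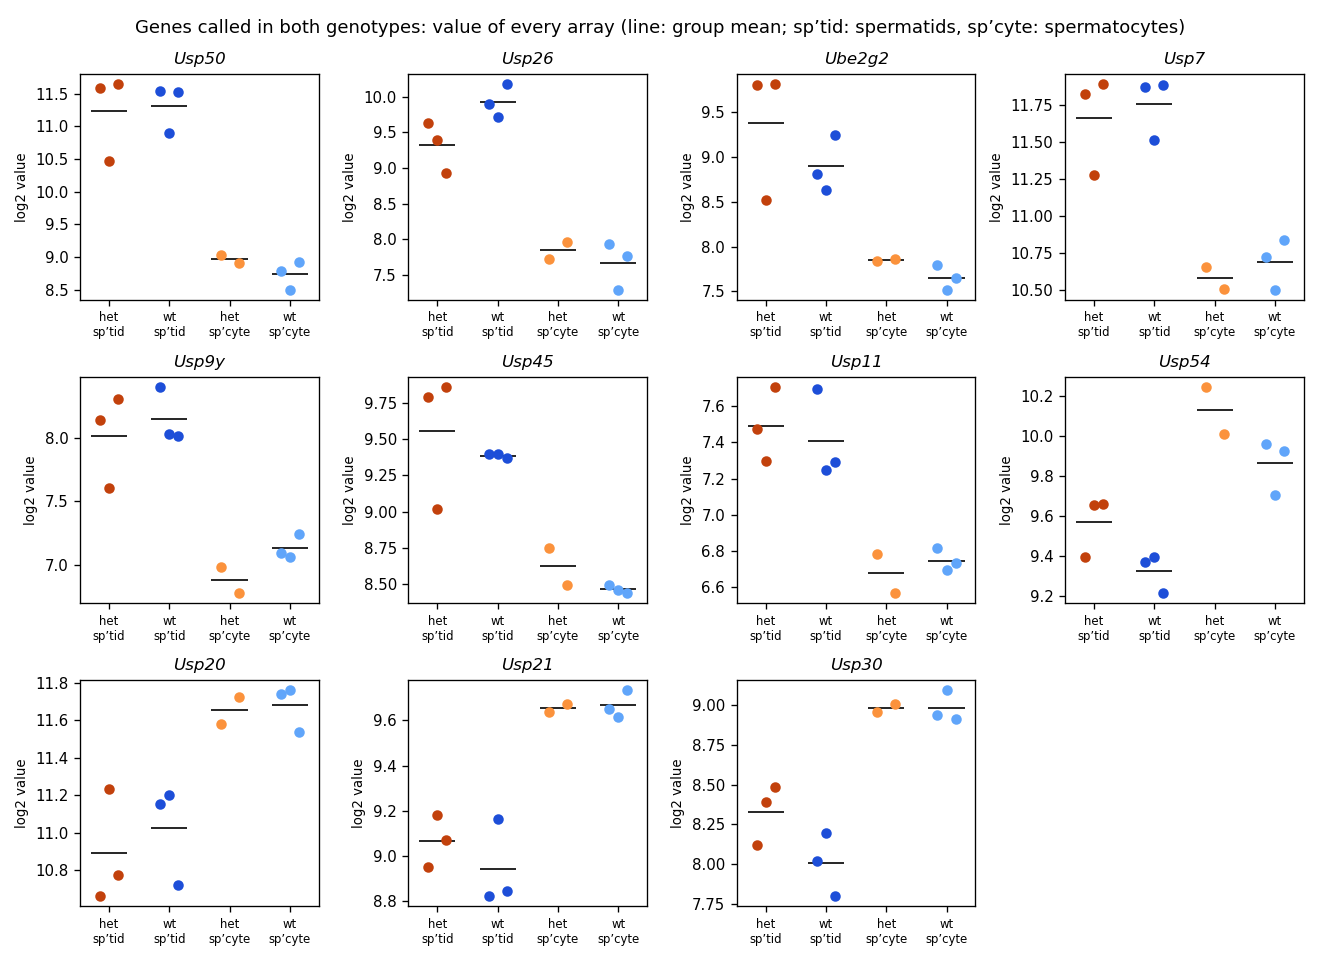
Log2 value of every array for the 11 genes called in both genotypes, in heterozygous spermatids, wild type spermatids, heterozygous spermatocytes and wild type spermatocytes, with a line at the group mean. Each panel has its own axis. In all 11 panels the 6 spermatid arrays lie wholly on one side of the 5 spermatocyte arrays, above them for Ube2g2 and 6 USP genes and below them for Usp20, Usp21, Usp30 and Usp54.

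Between the genotypes no Ube2 or USP gene was called. In spermatocytes 0 of 30 Ube2 and 0 of 45 USP genes passed, beside 0.197% of all genes, and in spermatids 0 and 0, beside 0.409%. At an unadjusted p under 0.05 there were 0 Ube2 genes and 1 USP gene in spermatocytes, beside 3.01% of all genes, and 1 and 4 in spermatids, beside 5.2%. The median difference, heterozygous minus wild type, was -0.04 for Ube2 and -0.03 for USP genes in spermatocytes and 0.05 for both in spermatids, beside 0.01 for all genes in each cell type. Arrays of the genotypes did not overlap for 1 Ube2 and 4 USP genes higher and 2 and 6 lower in heterozygous spermatocytes, beside 13.4% and 10.1% of all genes, and for 1 and 3 higher and 0 and 1 lower in heterozygous spermatids, beside 5.24% and 2.62%. Of the marker lists, only the endothelial Kdr was called between the genotypes, 0.41 higher in heterozygous spermatids (adjusted p = 0.035), and its part was not tested.

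**Figure D4:**
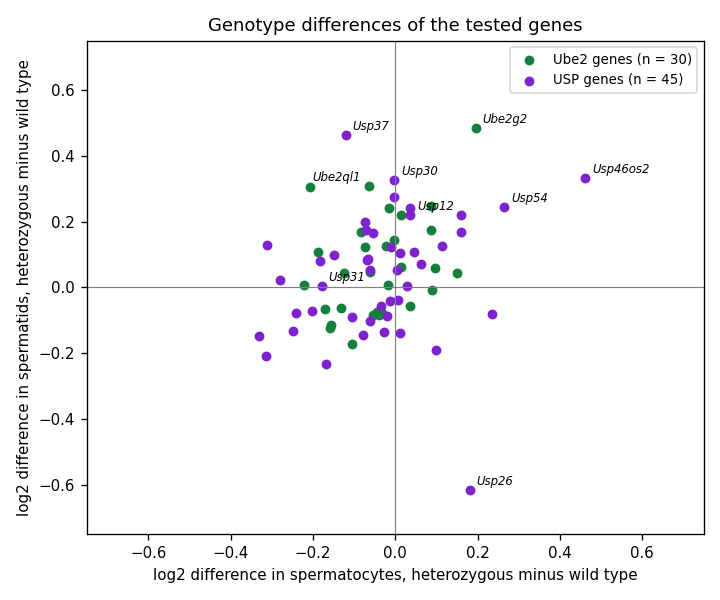
Log2 difference between heterozygous and wild type cells in spermatocytes (horizontal) and spermatids (vertical) for the 75 tested genes, one point a gene, with Ube2 genes in green and USP genes in purple. Most points lie within 0.3 of 0 on both axes, and Usp26 lies apart at -0.62 in spermatids and 0.18 in spermatocytes.

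In spermatids, Usp26 had the largest genotype difference of the 75 genes. Its values were 9.63, 9.39 and 8.93 in heterozygous spermatids and 9.90, 9.72 and 10.18 in wild type spermatids, so that all heterozygous arrays were lower, with a difference of -0.62 ± 0.22 (limma adjusted p = 0.119), and in spermatocytes the groups overlapped (0.18 ± 0.24, adjusted p = 0.792). The difference between these 2 differences was -0.80 ± 0.33 (adjusted p = 1.0). Of the 448 X-linked genes 0 were called in spermatids in either direction, with the adjustment over all probes and contrasts. The study also tested the X chromosome probes on their own, at a looser false discovery rate. It reported X-linked genes that differed in spermatids, all of them lower in heterozygous males, which is the direction of Usp26 here. That separate test was not run here, so the count of 0 does not exclude a smaller shift of X-linked genes. Usp12 was higher on all heterozygous spermatid arrays (7.20, 7.37 and 7.43 against 7.07, 7.08 and 7.19 in wild type spermatids), by 0.22 ± 0.07 (adjusted p = 0.102), and Usp30 by 0.33 ± 0.12 with overlapping arrays (adjusted p = 0.136).

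Ube2ql1, a relative of the Ube2q genes, read 7.87, 7.43 and 7.82 in heterozygous and 7.38, 7.45 and 7.37 in wild type spermatids, a difference of 0.31 ± 0.11 (adjusted p = 0.112) that heterozygous array 2 did not share. Ube2d1 (0.13 ± 0.06, adjusted p = 0.253) and Ube2j2 (0.31 ± 0.18, adjusted p = 0.397) followed in order of p. Without heterozygous spermatid array 2, limma called 3 Ube2 and 4 USP genes higher in heterozygous spermatids: Ube2g2 (0.91), Ube2ql1 (0.45), Ube2k (0.43), Usp46 (0.60), Usp25 (0.44), Usp45 (0.44) and Usp43 (0.41), with adjusted p from 0.00256 to 0.0408 and none lower, beside 3.79% higher and 1.13% lower of all genes in the same fit. Without heterozygous spermatid array 1 it called Ube2d2a (0.40, adjusted p = 0.0334) and Usp12 (0.29, adjusted p = 0.0365), beside 0.543% higher and 0.726% lower of all genes, and without each of the other 9 arrays it called none.

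In spermatocytes the smallest p among USP genes was that of Usp31, at 6.83 and 6.86 in heterozygous and 7.03, 6.99 and 7.05 in wild type spermatocytes (-0.18 ± 0.06, limma adjusted p = 0.102). All these values were close to the array median. Usp54 was 0.27 ± 0.12 and Usp15 -0.28 ± 0.13 (adjusted p = 0.236 and 0.248), each without overlap between the groups. Among Ube2 genes Ube2c (-0.13 ± 0.09), Ube2e3 (-0.22 ± 0.17) and Ube2t (-0.13 ± 0.10) had the smallest p, with an adjusted p of 0.52 to 0.561. The heterozygous group has 2 arrays, and its spermatid markers stood higher than in wild type spermatocytes, as given above. Their part in these differences was not tested.

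No gene showed a called difference of genotype effects between the cell types. The interaction, tested in limma with its own adjustment, called 0 of 30 Ube2, 0 of 45 USP and 0 of all 14186 genes, and at an unadjusted p under 0.05 there were 1, 1 and 278 (1.96%). After Usp26, the smallest p belonged to Ube2ql1 (0.37 ± 0.16), Usp31 (0.18 ± 0.08), Usp39 (0.44 ± 0.22), Ube2j2 (0.51 ± 0.27) and Ube2d1 (0.15 ± 0.09), all with an adjusted p of 1.0. So the genes called between the cell types in wild type cells alone, such as Ube2n and Usp5, were not shown to differ between the genotypes.

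Several genes have more than 1 tested probe, 11 among the Ube2 and 24 among the USP genes, and the probes did not always move together. In wild type cells 5 of the 11 and 7 of the 24 had probe differences of both signs. Usp7 had probes called in opposite directions: its brightest gave 1.07 ± 0.17, a second gave -0.02 ± 0.28 (adjusted p = 0.989) and the dimmest fell by 0.82 (adjusted p = 0.0158). That last probe read 7.34, 7.96 and 7.25 in heterozygous and 7.38, 7.62 and 7.51 in wild type spermatids, against 8.24 and 8.11 in heterozygous and 8.44, 8.29 and 8.25 in wild type spermatocytes. It was the 1 gene of this kind among the 35. Usp46, chosen after its values were seen, gave 0.80 ± 0.30 on its brighter and -0.96 ± 0.27 on its dimmer probe, neither called (adjusted p = 0.149 and 0.0526).

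The probes of Usp39 and of Usp50 each kept a direction. All 3 probes of Usp39 were called lower in wild type spermatids (-0.78, -1.04 and -0.84) and both of Usp50 higher (2.58 and 1.26). Of 5 probes of Usp47, a USP of base excision repair, only 1 was called, lower in both genotypes (-0.97 and -0.69), while the brightest gave -0.07 and -0.25. Usp37 had 2 brighter probes at -1.16 and -0.87 and 2 dimmer ones at 0.20 and 0.17. Of all 27986 probes 8.65% were called higher and 9.15% lower in heterozygous spermatids, and 11.5% and 15.5% in wild type spermatids. Counting a gene as called on any tested probe raised the wild type lower calls to 7 Ube2 and 15 USP genes. The share of all genes called in that way was not counted. The shares of single probes are another measure, since a gene with more probes can be called more easily.

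**Figure D5:**
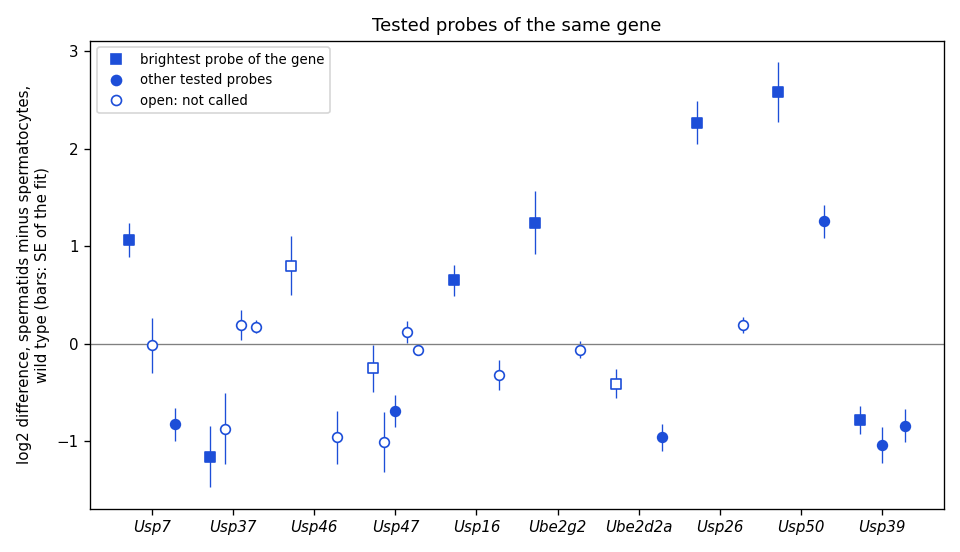
Log2 difference between wild type spermatids and wild type spermatocytes for each tested probe of 10 genes, with the SE of the fit; squares mark the brightest probe of a gene and open symbols a probe that was not called. The probes of Usp7 run from 1.07 to -0.82, whereas those of Usp39 all lie below -0.7 and both of Usp50 above 1.2.

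The other steps of the pathway were read from lists of E1 genes, E3 genes and other deubiquitinase genes. Of all genes, 10.5% were called higher and 11.0% lower in heterozygous spermatids, and 14.2% and 16.9% in wild type spermatids. Among 5 measured E1 genes, heterozygous spermatids had 0 higher and 1 lower, and wild type spermatids 1 higher and 3 lower. Sae1, a subunit of the SUMO-activating enzyme, fell in both (-1.15 ± 0.24 and -1.44 ± 0.22, adjusted p = 0.0183 and 0.00484), Nae1, of the NEDD8-activating enzyme, in wild type cells (-1.52 ± 0.39, adjusted p = 0.0365), and Uba6, an E1 for ubiquitin, rose in wild type cells (1.03 ± 0.26, adjusted p = 0.0374). Neither Nae1 nor Uba6 was called in heterozygous cells, where the differences of the 5 E1 genes ran from -1.30 to 0.22. Among 24 E3 genes, 4 were higher and 4 lower in heterozygous spermatids (16.7% each). In wild type spermatids 4 were higher (16.7%) and 5 lower (20.8%). Trim36, a ligase known from the acrosome, rose by 2.26 ± 0.21 and 2.65 ± 0.19, Znrf4 by 1.45 ± 0.15 and 2.26 ± 0.13, and the X-linked Siah1b by 1.29 ± 0.21 and 1.23 ± 0.19, all called, whereas Siah1a was -1.79 ± 0.57 (adjusted p = 0.0824) in heterozygous cells and fell in wild type cells (-2.32 ± 0.51, adjusted p = 0.0204).

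Znrf4 was the 1 gene of these pathway lists called between the genotypes. It stood 0.78 ± 0.15 higher in heterozygous than in wild type spermatocytes (limma adjusted p = 0.011), with values of 11.51 and 11.73 against 11.09, 10.59 and 10.84. The mean of the 10 round spermatid markers given above was higher in the same arrays, with 0 of them called between the genotypes. Their part in the Znrf4 difference was not tested. Of 23 deubiquitinase genes outside the USP family and their cofactors, 5 were higher (21.7%) and 4 lower (17.4%) in heterozygous spermatids. The shares of all genes were 10.5% and 11.0%. In wild type spermatids 5 were higher and 5 lower (21.7% each), beside 14.2% and 16.9% of all genes. Otub2 (2.19 ± 0.25 and 2.53 ± 0.22), Stambpl1 (1.86 ± 0.28 and 2.16 ± 0.25) and Atxn3 (1.25 ± 0.28 and 1.52 ± 0.25) had the largest increases, all called in both genotypes, and encode an OTU protease, a JAMM metalloprotease and a Josephin protease. Wdr48, the cofactor of Usp1, Usp12 and Usp46, fell by 0.85 ± 0.19 in heterozygous and 0.82 ± 0.17 in wild type spermatids (adjusted p = 0.0203 and 0.015) and was named after its values were seen.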

How the data were processed

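RNA of 11 preparations in 4 groups was measured on Illumina mouse BeadChips, 1 array to a preparation, and groups and replicates were taken from the sample labels. The study's methods count 1 heterozygous spermatocyte preparation more than the labels, not analysed here. Bead signals left BeadStudio, and the authors then took off the negative-control mean, applied the variance-stabilising transformation of lumi and quantile normalised the arrays, and the deposited values are log2 values of 46643 probes. Versions are not given in the sources used here. A second deposited table of bead signal and detection p-value columns has 22 columns with names that fit none of the samples, and it was left aside, so no probe was called detected or not. Sorted columns differed by at most 0.00873.

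Probes were named through the platform annotation, updated through RefSeq symbols: 32794 had 1 symbol, 55 several and 13794 none. A filter on the mean dropped the dimmest 40% of probes and kept 27986. A mean for each group was fitted with limma 3.58.1 in R 4.3.3 over all 11 arrays (7 residual and 1.89 prior degrees of freedom), and Benjamini-Hochberg adjustment ran at 0.05 over all probes and 4 contrasts together, as in the study's methods. The interaction was adjusted on its own. A gene was read by its tested probe with the highest mean over all arrays. The number of arrays limits the precision, with a within-group SD that had a median over probes of 0.134 in heterozygous spermatids, 0.099 in wild type spermatids, 0.063 in heterozygous spermatocytes and 0.097 in wild type spermatocytes. The fit was also run on simulated arrays with independent noise and the same SD of a probe in all groups. That run cannot bear on groups of unlike spread or on arrays that deviate together, so it does not back the calls given here. Plots used matplotlib 3.10.9 (Python 3.11.15).

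The members and lists were chosen with earlier results of these data known. Named were the 5 largest increases and 5 largest decreases among called genes of a class in each cell type contrast, called genes or else the 3 smallest p in each genotype contrast and the interaction, the Rad6 pair, the Ube2d genes, sex-linked USP genes, genes with probes called in opposite directions, and up to 3 called genes of a pathway list with the largest difference. Alternatives were no filter, a 60% filter, adjustment within each contrast, a fit of the compared groups only, a trend and robust prior, array weights, a replicate block, the mean of a gene's probes, a call on any probe, and leaving out arrays. Genes with no promoter window at hand were Usp18, Usp33, Usp53, Ube2e3, Usp39, Usp43, Usp5, Ube2w, Usp44, Usp1, Ube2d2a, Usp14, Usp42, Ube2g2, Ube2v2, Ube2o, Usp22 and Usp9x.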

Additional observations from a re-analysis of the deposited data

How the results depend on the processing

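Counts of called genes moved more with the setting than directions did, and no difference of a named gene called on its brightest probe changed sign under any setting run. On any probe Usp7, called higher in wild type spermatids on its brightest probe, was also counted among the lower genes. For Ube2 genes, the 4 called lower in wild type spermatids became 2 without a filter, 8 with adjustment within each contrast, 7 on any probe, 13 with array weights and 7 without both spermatid arrays 2. The 1 called higher became 0 without a filter or with the mean of probes, 4 with array weights and 2 without both spermatid arrays 2. In heterozygous cells the 0 called lower became 2 with a 60% filter, 3 within each contrast, 1 on any probe, 3 with array weights, 1 with a trend and robust prior and 4 without both spermatid arrays 2, and the 1 called higher became 2 with array weights, 0 with only the groups compared and 2 without both spermatid arrays 2. For USP genes, the 8 called lower in wild type spermatids became 5 without a filter, 15 on any probe and 14 with array weights, and the 7 called higher became 11 with array weights. In heterozygous cells the 4 called lower became 7 within each contrast, 11 with array weights, 2 with only the groups compared and 10 without both spermatid arrays 2, and the 7 called higher became 3 with only the groups compared. Between the genotypes, array weights called 2 Ube2 and 2 USP genes in spermatids (Ube2g2, Ube2ql1, Usp12 and Usp43) and 1 USP gene in spermatocytes (Usp31), and leaving out both spermatid arrays 2 called 2 Ube2 and 3 USP genes in spermatids. The array weights did not settle, giving wild type spermatid array 1 a weight of 12.1 and the others 0.293 to 1.72. The cause was not tested for any of these changes. The share of all genes called between the cell types was counted for the main fit only. The changed cell type counts therefore have no such share beside them.

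Leaving out each array in turn gave 0 to 7 Ube2 genes lower and 0 to 2 higher in wild type spermatids, 0 to 3 lower and 0 to 2 higher in heterozygous spermatids, and 0 to 3 between the genotypes in spermatids. It gave 5 to 10 USP genes lower and 4 to 9 higher in wild type spermatids, 0 to 9 lower and 2 to 9 higher in heterozygous spermatids, and 0 to 4 between the genotypes in spermatids. The highest counts came without heterozygous spermatid array 2. Ube2 genes lower in wild type spermatids were 0 without wild type spermatid array 1 or wild type spermatocyte array 2, USP genes higher in wild type spermatids 4 without wild type spermatocyte array 2 or 3, USP genes higher in heterozygous spermatids 2 without heterozygous spermatocyte array 2, and USP genes lower there 0 without heterozygous spermatocyte array 1. A lone heterozygous spermatocyte array was assumed to vary like the other groups. Between the genotypes in spermatocytes, and in the interaction, there were 0 calls throughout. Of the wild type calls 0 of 5 Ube2 and 9 of 15 USP genes held in every leave-out, and of the heterozygous calls 0 of 1 and 2 of 11. How many calls of all genes held in every leave-out was not counted, so these counts have no share beside them. Replicate numbers are shared between groups. Arrays of the same number had deviations correlated at r from -0.26 to 0.33 over all pairs of groups, and at 0.28, 0.33 and 0.06 between the genotypes in spermatids, so not every pair was over 0.1 and no pairing was taken. Both cell fractions were kept from an isolation of 10 mice, so spermatid and spermatocyte arrays may share mice, which the labels do not say. With the replicate block, 2 Ube2 genes were called lower in wild type and 1 in heterozygous spermatids, and the other counts stayed within 1.5 times. Of all genes, array weights called 2.81% higher and 2.07% lower between the genotypes in spermatids, and the fit without both spermatid arrays 2 called 2.98% and 3.11%. A background correction from bead signals was not run, since those columns match no sample.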
